A study of Mus musculus with 4 samples.

Results

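Unannotated open reading frames (ORFs), which carry ribosome footprints without being an annotated coding sequence, were examined in cultured mouse female germline stem cells (FGSCs), a stem cell population derived from the ovary. Of the 4669 ORFs in the deposited table, all 221 of 1 class were taken, that of newly called ORFs, which the table sets apart from 4347 annotated ORFs, from 71 upstream ORFs and from a few overlapping or downstream ones, and no measured value entered this choice. They lay in 216 host genes. The cells carried either a lentiviral short hairpin RNA against the long noncoding RNA (lncRNA) Gm26917 (shGm26917, 2 libraries) or a control hairpin (shNC, 2 libraries), and the study describes the replicates as biological. All cells had been transduced and drug selected, and all were treated with cycloheximide before lysis. The same 4 libraries also had a translation efficiency (TE) for each gene, the ratio of its normalized footprints to its normalized RNA. The comparison asked which ORFs gained or lost ribosomes after Gm26917 knockdown.

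A ribosome protects a short stretch of the RNA that it is reading, so sequencing the protected fragments shows where ribosomes sit. Ribosomes move by codons, and RiboCode, the program the authors used, accepts an ORF where the footprints follow the 3-base rhythm of its reading frame. ORFs found this way outside annotated coding sequences are known from pseudogenes, from lncRNAs and from other parts of coding genes. Some give stable microproteins, while the products of many others are broken down quickly. Because an ORF had to carry footprints to be called, the presence of footprints on an unannotated ORF is not a finding here. Many pseudogenes are near copies of a coding gene, and the rule by which reads that fit both were assigned to 1 of them (not given in the sources used here) decides their values, so every value of a pseudogene or of its parent gene is uncertain to that extent.

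Only 58 of the host genes had a promoter window in the RefSeq table (GRCm38.p6, 250 bases before to 50 bases after the gene start), and the first codon of 6 unannotated ORFs fell inside such a window. These sites are shown because they are the called starts of translation that the reference table covers. The start codons that the caller accepts decide the first codon, so it is a description. All 6 began with ATG, written in capitals, with up to 12 bases before and up to 15 bases after it.
2410006H16Rik 44 codons: tctgcggccatcATGggatcgtgctcttct
Snhg16 55 codons: tgtttggaagttATGgccg
Ino80e 234 codons: gttgagcctccgATGtgga
Ppp2r5c 441 codons: cccgcaccagccATGccgaataaaaacaag
Ska3 335 codons: cgcaggattcaaATGtgtagcgcgttcgtt
Tmed9 87 codons: aggtggggcaagATGgctgcggt
The first 2 lie in lncRNAs and the other 4 in coding genes. Counted from the RefSeq gene start, the called starts of Ppp2r5c and Ska3 lay at -163 and -9, that is, before it. The stretches lie at chr11:62602878-62602907 (+), chr11:116671691-116671709 (+), chr7:126862323-126862341 (-), chr12:110447347-110447376 (+), chr14:57826155-57826184 (-) and chr13:55593162-55593184 (+), in the order shown. Vertebrate start codons are often preceded by a purine at position -3 and followed by G at +4, counted from the A of ATG as +1. In 4 of the 6 sites position -3 was a purine, and in 3 of the 6 position +4 was G. 2410006H16Rik, Snhg16 and Tmed9 had both, Ppp2r5c had only the purine, and Ino80e and Ska3 had neither.

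Most unannotated ORFs lay in pseudogenes. Pseudogenes held 137 ORFs, of which 118 were in processed pseudogenes, the intronless copies made from an mRNA. Another 13 were in transcribed processed pseudogenes, 3 in transcribed unprocessed, 2 in unprocessed pseudogenes and 1 in a gene called only pseudogene. Protein coding genes held 73 ORFs (71 genes), lncRNAs held 10, and the mitochondrial ribosomal RNA gene mt-Rnr2 held 1. RefSeq listed 130 of the noncoding and pseudogene hosts by symbol and gave 1 of them, Rpl37rt, a protein. No host held over 2 unannotated ORFs. The 5 hosts with a pair were Mif, Hspa8, Gm6560, Gm5905 and Gm5182, and only the pair in Gm5905 overlapped in position.

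The unannotated ORFs were short beside annotated ORFs. Their length ran from 16 to 2430 codons with a median of 181, against a median of 448 codons over the 4347 annotated ORFs. Under 100 codons were 42 unannotated ORFs, against 2.16% of annotated ORFs. Upstream ORFs were shorter still, with a median of 27 codons and 98.6% under 100 codons. The shortest were in Rex1bd (16 codons), the small nucleolar RNA host gene Snhg8 (23 codons), mt-Rnr2 (38 codons) and Snhg1 (40 codons). Among the longest were those in the pseudogenes 9130208D14Rik (2430 codons), Gm8995 (2290 codons) and Gm5182 (886 codons). These differences of length are descriptions of the ORF table and were not tested.

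**Figure D1:**
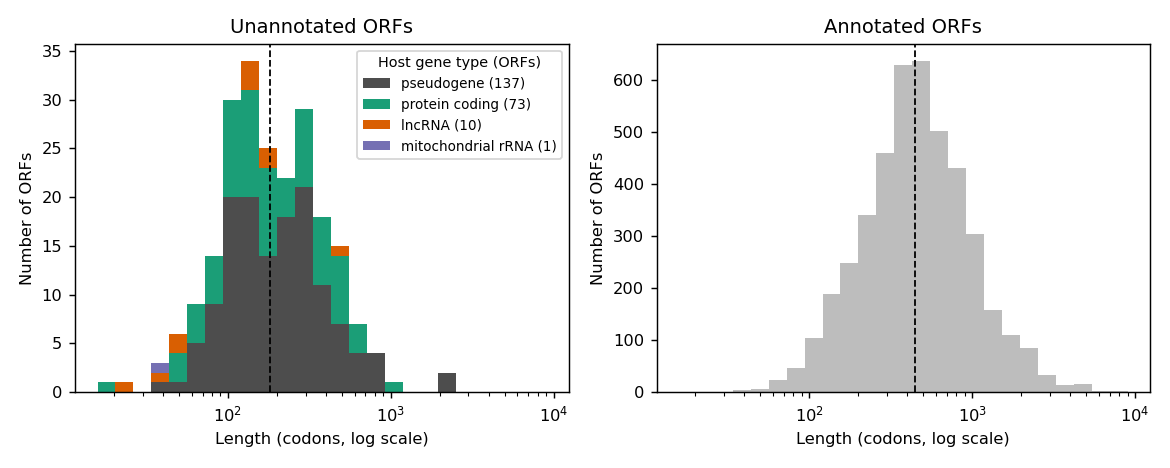
Lengths of the 221 unannotated ORFs (left, stacked by host gene type) and of the 4347 annotated ORFs (right), as numbers of ORFs by length in codons on a log scale. Dashed lines mark the medians of 181 and 448 codons.

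An unannotated ORF was usually 1 unbroken stretch of the genome. In 148 unannotated ORFs (67.0%) the genomic span equalled the coding length with its stop codon, against 5.20% of annotated ORFs and 70.4% of upstream ORFs. This held for 130 of 137 ORFs in pseudogenes, 12 of 73 in coding genes and 5 of 10 in lncRNAs. Of the 136 pseudogene ORFs whose host had coordinates in the gene table, 78 began at the first base of the pseudogene, and the median ORF spanned 85.3% of it. In coding hosts the median ORF spanned 22.3% of the gene. All 220 ORFs with host coordinates lay on the strand of their host. A coding gene other than the host overlapped 17 unannotated ORFs on the same strand and 19 on the opposite strand, and reads of overlapping genes on opposite strands can be told apart only where the counting used strand, for which no source used here gives an answer.

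The libraries differed in how many unannotated ORFs they listed. Values above 0 covered 19 (8.60%) and 196 (88.7%) of the 221 in shGm26917 replicates 1 and 2, against 194 (87.8%) and 157 (71.0%) in shNC replicates 1 and 2. The shares of annotated ORFs were 8.12% and 91.1% in the shGm26917 libraries, against 90.4% and 74.0% in the shNC libraries. Unannotated ORFs were therefore listed in about the same proportions as annotated ones, and the library shGm26917 replicate 1 stood apart for both. The ORF values of the 4 libraries, divided by the value of a single read, gave 157914 and 1753036 reads in shGm26917 and 1618481 and 1049143 reads in shNC. Of the 202 unannotated ORFs at 0 in shGm26917 replicate 1, 127 (62.9%) had a host with a TE above 0 in that same library, against 3950 of the 4095 other ORFs at 0 there (96.5%). A 0 is for this reason given below as listed at 0. No fold change of a single ORF is given against a group at 0, except where leaving out a library made such a group. The fits were also run without shGm26917 replicate 1.

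The 221 unannotated ORFs took 1675 and 17776 reads in shGm26917 replicates 1 and 2, or 1.06% and 1.01% of all ORF reads, against 17834 and 5231 reads (1.10% and 0.499%) in shNC replicates 1 and 2. The single ORF in mt-Rnr2 weighed on these shares. Without it they were 1.06% and 0.753% in shGm26917, against 0.595% and 0.499% in shNC. With 2 libraries a group, an exact permutation test cannot give a two-sided p below 0.333, and none is given for these shares.

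Levels of unannotated ORFs were low. Among ORFs listed above 0, the median value (size-adjusted reads per ORF) was 27.0 and 10.6 in shGm26917 replicates 1 and 2, against 8.69 and 8.16 in shNC. For annotated ORFs it was 535 and 115 in shGm26917, against 122 and 150 in shNC. Per codon, the median level of a listed unannotated ORF was 0.0987 and 0.0627 in shGm26917, against 0.0530 and 0.0426 in shNC, and that of an annotated ORF was 0.971 and 0.241, against 0.255 and 0.322. Thus the level per codon of a typical unannotated ORF was below that of a typical annotated ORF in each of the 4 libraries. At least 10 reads were behind 12 and 114 unannotated ORFs in shGm26917, against 107 and 65 in shNC. Fewer than 20 reads in every library were behind 125 of the 221, so single values of these ORFs carry a large counting error.

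**Figure D2:**
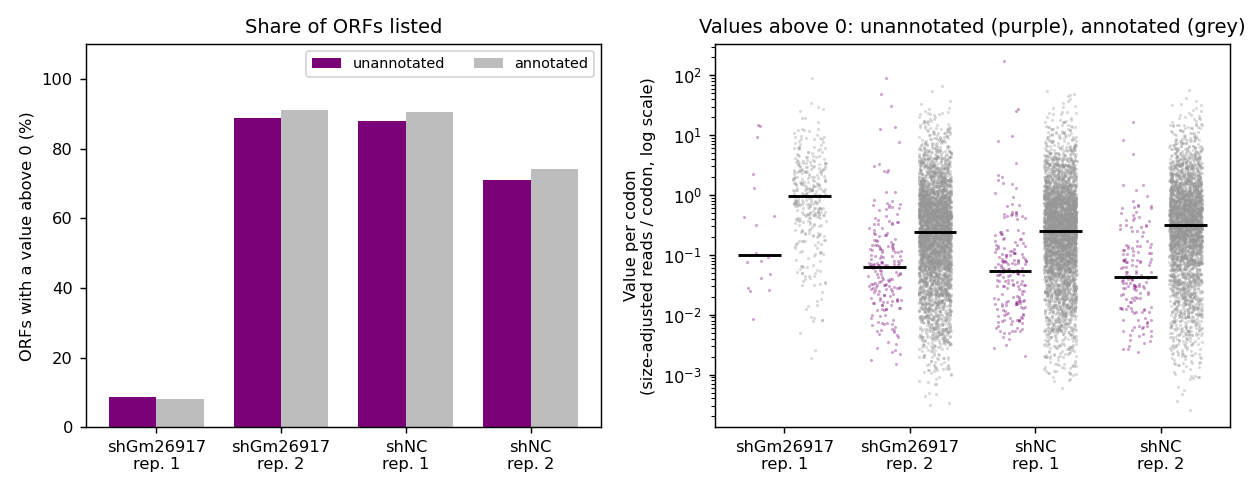
Left, share of unannotated and annotated ORFs with a value above 0 in each library (bars, percent). Right, value per codon of each ORF above 0 on a log scale, with medians as black lines. The share listed fell to about the same low level for both classes in shGm26917 replicate 1 (8.60% and 8.12%), and the unannotated medians lay below the annotated medians in all 4 libraries.

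The host types differed in level. ORFs in lncRNAs had a median listed value of 121.7 in shGm26917 replicate 2, against 76.6 and 20.4 in shNC replicates 1 and 2, and the only one above 0 in shGm26917 replicate 1 had 618. ORFs in pseudogenes had medians of 27.0 and 12.1 in shGm26917, against 10.3 and 10.5 in shNC. ORFs in coding genes had medians of 27.0 and 3.78, against 4.34 and 3.50. Each median covers only the ORFs listed in that library, so the libraries are compared over different ORFs. For lncRNAs these were 9 ORFs in shGm26917 replicate 2, against 7 and 4 in shNC. In shGm26917 replicate 1 the medians rest on 13 pseudogene ORFs and 5 ORFs in coding genes.

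No single pattern of listing held most unannotated ORFs. None was above 0 in fewer than 2 libraries, which held for all 4669 ORFs. Above 0 in 2 libraries were 111, in 3 were 96 and in all 4 were 14, against 2049, 2324 and 296 of all ORFs. At 0 in shGm26917 replicate 1 alone were 92 (41.6%), against 48.8% of all ORFs. At 0 in shGm26917 replicate 1 and 1 shNC library were 61 (27.6%, shNC replicate 2) and 26 (11.8%, shNC replicate 1). Over all ORFs the shares of these 2 patterns were 25.7% and 9.15%. Both patterns mix the groups. Missing from both shGm26917 libraries but present in both shNC libraries were 23 (10.4%), near the 8.37% of all ORFs with that pattern. The opposite pattern was found in 1 unannotated ORF, against 0.214% of all ORFs.

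A value above 0 in all 4 libraries was found for 14 unannotated ORFs. Since few ORFs were listed in shGm26917 replicate 1, being above 0 there largely chose these 14, and their order in that library is a description. Of these, shGm26917 replicate 1 was the highest library in 5, the lowest in 6 and in between in 3. In shGm26917 replicate 2 the value was above both shNC libraries in 5, below both in 4 and between them in 5. Both shGm26917 values were above both shNC values in 0 of the 14 and below both in 1, the pseudogene Rps16-ps2, so the groups overlapped in the rest. Over the 296 ORFs of all classes above 0 in all 4 libraries, these orders were found in 18.9% and 17.6%.

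Gm13461, a processed pseudogene inside the gene Lrp1b and on its strand, held the most abundant of these, an ORF of 43 codons on chromosome 2 (41988003 to 41988829, minus strand, mm10). Its values were 400.1 and 2093 in shGm26917 replicates 1 and 2, against 1166 and 719 in shNC. The shGm26917 libraries were thus the lowest and the highest of the 4, and limma gave a log2 change of -0.00 ± 1.06 (SE, 2 libraries a group, adjusted p = 1.00). Per codon its level was 9.30 and 48.7 in shGm26917, against 27.1 and 16.7 in shNC.

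Rpl14-ps1, a processed pseudogene of the large-subunit protein gene Rpl14, held an ORF of 216 codons. Its values were 492 and 134 in shGm26917, against 92.4 and 145.7 in shNC, and the log2 change came to 1.14 ± 1.87 (SE, limma adjusted p = 0.974). Without shGm26917 replicate 1 it was 0.20, and without shGm26917 replicate 2 it was 2.08 (limma adjusted p = 0.031). Only shGm26917 replicate 1 was outside the range of the others. The host's TE was 0.785 and 0.152 in shGm26917, against 0.0892 and 0.148 in shNC, so the same library was also the highest for the ratio.

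The pseudogenes Gm9385 (104 codons), Gm9625 (298 codons) and Gm5823 (146 codons) had the reverse order. Gm9385 had values of 45.0 and 253.9 in shGm26917, against 221 and 127.0 in shNC. Gm9625 had 27.0 and 179 in shGm26917, against 144.5 and 111.9 in shNC. Gm5823 had 15.7 and 117 in shGm26917, against 102.7 and 87.4 in shNC. In each of these the first shGm26917 replicate was the lowest library and the second the highest, with log2 changes of -0.64 ± 2.15, -0.85 ± 2.37 and -1.11 ± 2.54 (SE, limma adjusted p = 1.00 for each). Without shGm26917 replicate 1 the 3 changes turned to 0.60, 0.49 and 0.30.

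The pseudogene ORF in Impdh2-ps, named for an enzyme of guanine nucleotide synthesis, had 40.5 and 65.0 in shGm26917, against 65.5 and 38.5 in shNC. Gm12183 had 60.7 and 50.6 in shGm26917, against 30.0 and 64.1 in shNC. Vcp-rs, related to the protein-unfolding ATPase Vcp, had 20.2 and 53.7 in shGm26917, against 30.0 and 29.1 in shNC. In these 3 the groups overlapped, with log2 changes of 0.03 ± 2.38, 0.33 ± 2.38 and 0.16 ± 2.32 (SE, limma adjusted p = 1.00 for each). Cd63-ps, named for a membrane protein of late endosomes, had 6.74 and 34.8 in shGm26917, against 33.2 and 36.1 in shNC. Gm5422 had 42.7 and 11.3 in shGm26917, against 15.01 and 5.83 in shNC. Rps16-ps2 had 11.2 and 3.02 in shGm26917, against 13.4 and 11.7 in shNC, from 5 and 4 reads in shGm26917 and 17 and 10 in shNC.

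**Figure D3:**
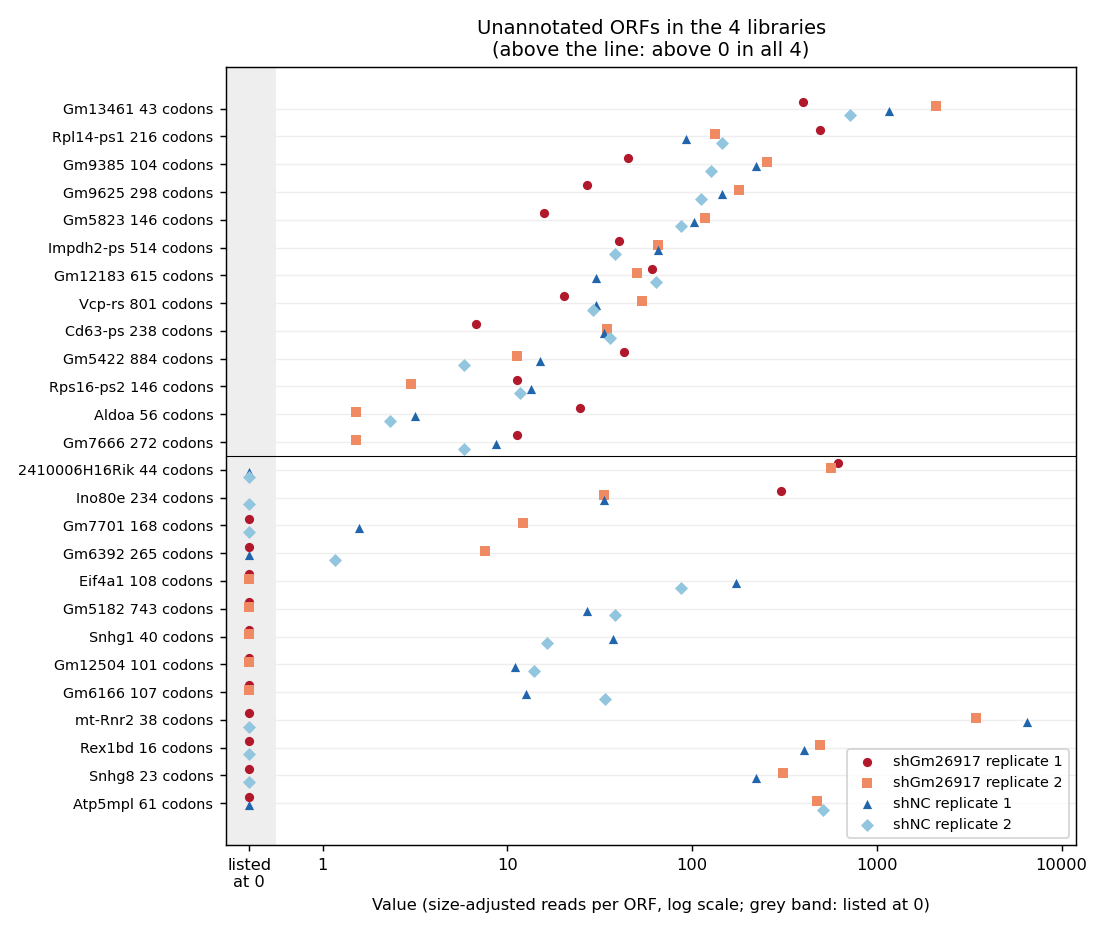
Values (size-adjusted reads per ORF, log scale) of single unannotated ORFs in the 4 libraries, each symbol being 1 library and the grey band holding values listed at 0. Above the line are 13 of the 14 ORFs above 0 in all libraries, and below it those with the smallest limma p in each direction and the highest values per codon. In Rpl14-ps1 a single shGm26917 library stands at 492, and the other 3 libraries lie between 92.4 and 145.7.

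No unannotated ORF passed limma's test for a difference between shGm26917 and shNC. At a Benjamini-Hochberg adjusted p under 0.05 limma called 0.0% of all 4669 ORFs and 0 of the 221 unannotated ORFs. By edgeR and DESeq2 0 were called as well, but edgeR tested only 98 of the 221. DESeq2 gave no adjusted p to some ORFs, among them Impdh2-ps and Gm12183, so it could not call those. The lowest DESeq2 adjusted p of an unannotated ORF was 0.0586. At an unadjusted p under 0.05 there were 9 unannotated ORFs by limma, against 7.41% of all ORFs, 1 of 98 tested by edgeR, against 0.102%, and 8 by DESeq2, against 7.5%. The study's threshold (a change of at least 1.5-fold and an unadjusted p of at most 0.05) was met by the same 9 (4.07%), against 7.37% of all ORFs. Of these 9, 8 were lower in shGm26917 (all ORFs 7.2%) and 1 was higher (all ORFs 0.171%). The difference between these shares was not tested. Leaving out shGm26917 replicate 1 gave 3 unannotated ORFs at the study's threshold (1.36%, against 5.5% of all ORFs), and leaving out shGm26917 replicate 2 gave 31 (14.0%, against 46.1%). Leaving out shNC replicate 1 gave 17 (7.69%, against 7.77%), and leaving out shNC replicate 2 gave 24 (10.9%, against 8.61%). Without shGm26917 replicate 2, where the lone library lists few ORFs, 23 unannotated ORFs (10.4%) and 1982 of all ORFs (42.5%) passed the adjusted test. In the other 3 such fits no ORF did.

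The ORF in 2410006H16Rik, a lncRNA on chromosome 11, had the smallest p of all unannotated ORFs. It has 44 codons (62602890 to 62603235, plus strand) and its start site is the first of those printed above. Its values were 618 and 567 in shGm26917, or 275 and 750 reads, and it was listed at 0 in both shNC libraries (limma adjusted p = 0.341). It was the only unannotated ORF listed in both shGm26917 libraries and in no shNC library. Its host gene nevertheless had a TE above 0 in every library, of 3.07 and 1.69 in shGm26917, against 1.71 and 1.34 in shNC. The change in TE was 0.59 ± 0.41 on the log2 scale (SE, adjusted p = 0.965), and the ranges overlapped.

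Ino80e, which codes for a subunit of the INO80 chromatin remodelling complex, held the other unannotated ORF whose values did not overlap upward. Its 234-codon ORF had 303 and 33.3 in shGm26917, against 33.2 and 0 in shNC, and the second shGm26917 value rested on 44 reads, against 42 reads in shNC replicate 1. Over all ORFs 1.73% had both shGm26917 values above both shNC values, and among unannotated ORFs 2 did (0.905%). Both shGm26917 values were below both shNC values in 52 unannotated ORFs (23.5%), against 27.3% of all ORFs. Taking shGm26917 replicate 2 alone, 57 unannotated ORFs (25.8%) were below and 84 (38.0%) above both shNC libraries, against 28.6% and 37.6% of all ORFs.

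Gm7701 and Gm6392, both processed pseudogenes, were among the 5 higher ORFs with the smallest p and were known from few reads. Gm7701 had 0 and 12.1 in shGm26917, against 1.58 and 0 in shNC. Gm6392 had 0 and 7.56 in shGm26917, against 0 and 1.17 in shNC. In both, the groups overlapped at 0.

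The 5 lower unannotated ORFs with the smallest p were all listed at 0 in both shGm26917 libraries. Eif4a1, which codes for the RNA helicase that unwinds mRNA for initiation, held an ORF of 108 codons on chromosome 11 (69667818 to 69668228, minus strand) with values of 173 and 87.4 in shNC, or 219 and 75 reads (limma adjusted p = 0.341). The pseudogene Gm5182 had 26.9 and 38.5 in shNC for its ORF of 743 codons (adjusted p = 0.341), while its other ORF of 886 codons had 0 and 16.6 in shGm26917, against 0 and 31.5 in shNC. Gm12504 had 11.1 and 14.0 in shNC, and Gm6166 had 12.6 and 33.8 (limma adjusted p = 0.361 and 0.388). The pair of ORFs in Gm5182 thus did not share a pattern. For Eif4a1 the TE was 0.0391 and 0.0331 in shGm26917, against 0.0438 and 0.0355 in shNC, and the groups overlapped.

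Unannotated ORFs in lncRNAs were few and varied. Snhg1, Snhg8 and Snhg16 are host genes of small nucleolar RNAs, whose introns yield the small RNAs while the spliced exons leave the nucleus. Snhg1 (40 codons) was listed at 0 in both shGm26917 libraries and had 37.1 and 16.3 in shNC (limma adjusted p = 0.361). Snhg8 (23 codons) had 0 and 310 in shGm26917, against 221 and 0 in shNC. Snhg16 (55 codons) had 0 and 169 in shGm26917, against 192 and 0 in shNC. In the last pair both groups held a 0 and a value above 100. TE of these host genes was above 0 in every library. Snhg16 had 3.73 and 3.58 in shGm26917, against 4.16 and 4.67 in shNC. Snhg8 had 1.56 and 2.05 in shGm26917, against 1.21 and 0.927 in shNC, and Snhg1 had 0.689 and 1.10, against 0.756 and 0.639.

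Of the other lncRNA ORFs, Gm10734 (129 codons) had 0 and 146.6 in shGm26917, against 137 and 79.2 in shNC, but a coding gene lies on the opposite strand. The same holds for D830050J10Rik (196 codons, 0 and 121.7 in shGm26917, against 0 and 16.3 in shNC), for Gm47766 and for A130051J06Rik. The ORF in 2010001K21Rik (150 codons) had 0 and 14.4 in shGm26917, against 15.8 and 0 in shNC, although the TE of this gene was 0 in all 4 libraries.

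The highest level per codon belonged to mt-Rnr2, the RNA of the large subunit of the mitochondrial ribosome. Its ORF of 38 codons (mitochondrial genome, 1875 to 1991, plus strand) had 0 and 3451 in shGm26917, against 6480 and 0 in shNC, which is 90.8 per codon in shGm26917 replicate 2 and 170.5 in shNC replicate 1. The gene had a TE of 117 and 199 in shGm26917, against 91.1 and 48.3 in shNC. This RNA is itself a part of a ribosome, and the share of its fragments that were footprints was not tested. Rex1bd, with the shortest unannotated ORF (16 codons), had values of 0 and 493 in shGm26917, against 404 and 0 in shNC. Atp5mpl, a small subunit of the mitochondrial ATP synthase, had an ORF of 61 codons with 0 and 472 in shGm26917, against 0 and 508 in shNC. For each of these 3, the library without reads in shGm26917 was replicate 1, and 1 shNC library was also at 0.

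Unannotated ORFs in coding genes could be set beside the annotated ORF of the same gene in 22 cases. In 8 the pair shared the start position, in 3 the stop (Get4, Psmb6 and Slc38a2), and in 11 neither. The 11 that share an end with an annotated ORF therefore touch a coding sequence. The highest value of the unannotated ORF was below that of every annotated ORF of its host in 19 of the 22, the exceptions being Rpl13, Ska3 and Ptger3. Ptger3 has more than 1 annotated ORF, and the one with the highest mean stood for it in what follows. Both members of a pair were above 0 in 17 pairs in shGm26917 replicate 2, against 14 and 15 in shNC replicates 1 and 2, and the unannotated one was lower per codon in 14 of those in shGm26917 replicate 2, against 11 and 14 in shNC. The median ratio per codon of unannotated to annotated ORF was 0.0569 in shGm26917 replicate 2, against 0.162 and 0.0926 in shNC, and no pair had both above 0 in shGm26917 replicate 1. Get4, a factor that hands newly made membrane proteins to their insertion route, had 0 and 3.78 for its unannotated ORF in shGm26917, against 1.58 and 0 in shNC. Its annotated ORF had 0 and 74.1 in shGm26917, against 118 and 89.7 in shNC.

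Rpl13, a large-subunit ribosomal protein gene, was the clearest exception. Its unannotated ORF of 99 codons, with the start of the annotated ORF of 211 codons, had 0 and 260 in shGm26917, against 802 and 476 in shNC. The annotated ORF had 0 and 7.56 in shGm26917, against 0 and 1.17 in shNC. In each of the 3 libraries with any reads the shorter ORF therefore had the larger value. Ska3, a kinetochore protein gene, had 0 and 23.4 for its unannotated ORF in shGm26917, against 22.9 and 173.7 in shNC, and its annotated ORF had 0 and 4.53, against 11.1 and 0. Whether ORFs that overlap in 1 gene were given the same reads was not tested.

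Pseudogene ORFs could be set beside the parent gene where the symbol names it. Of 32 pseudogene ORFs with a symbol ending in -ps or -rs, with or without a number, 13 had an annotated ORF of the parent in the table. In 7 the pseudogene ORF had exactly as many codons as the parent, in 9 it was within 2 codons, and in 4 it was shorter by more. It was longer by more than 2 codons in 0. Where both were above 0, the pseudogene ORF was lower per codon than its parent in 1 of 2 pairs in shGm26917 replicate 1 and 6 of 11 in shGm26917 replicate 2, against 7 of 11 and 9 of 12 in shNC replicates 1 and 2. Hspd1-ps3, with the 573 codons of the mitochondrial chaperonin Hspd1, had 0 and 6.80 in shGm26917, against 9.48 and 9.32 in shNC. Hspd1 itself had 942 and 1779 in shGm26917, against 1399 and 1549 in shNC. The order was the opposite for Rpl14-ps1 and Impdh2-ps. Rpl14 had 0 and 12.8 in shGm26917, against 4.74 and 4.66 in shNC, and Impdh2 had 33.7 and 9.07, against 11.1 and 8.16, in each library below the pseudogene's value.

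**Figure D4:**
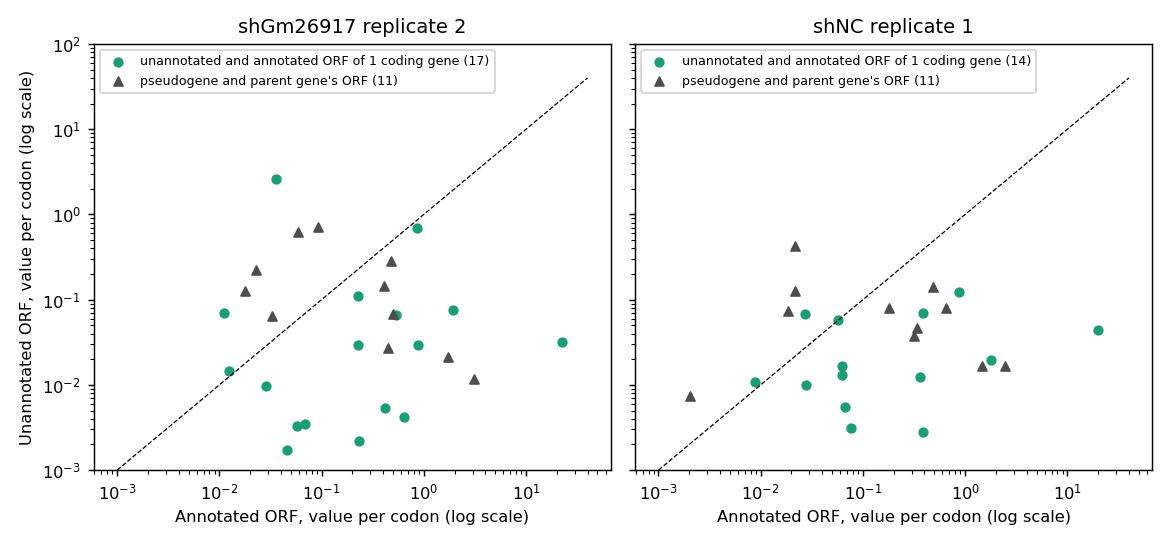
Value per codon of unannotated ORFs (y axis, log scale) against the annotated ORF of the same coding gene (circles) or of the parent gene of the pseudogene (triangles; x axis, log scale), in shGm26917 replicate 2 (left) and shNC replicate 1 (right). The dashed line marks equal levels, and only pairs above 0 in both are drawn. Most circles lie below the line, and triangles lie on both sides of it.

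Genes for ribosomal proteins and their pseudogenes held 15 unannotated ORFs by symbol, 11 in pseudogenes and 4 in coding genes. Above 0 were 3 and 14 of them in shGm26917, against 15 and 13 in shNC. Rpl36a-ps2 had 0 and 74.8 in shGm26917, against 46.6 and 0 in shNC. Rpl37rt had 0 and 11.3, against 14.2 and 10.5. Of the 15, 0 had an unadjusted limma p under 0.05, against 7.41% of all ORFs. This group was formed after the values were seen and is described without a test.

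The median log2 change of the unannotated ORFs was -0.72, against -2.13 over all 4669 ORFs, and both medians include the values listed at 0. With the ORFs listed at 0 in a whole group set to a floor of 3 reads in each library, a setting chosen after the values were seen, the medians were -0.46 and -1.87. Over the ORFs above 0 in all 4 libraries, which the listing in shGm26917 replicate 1 largely chose, they were 0.01 (14 unannotated ORFs) and -0.02 (296 ORFs of all classes). Without shGm26917 replicate 1 the median of the unannotated ORFs turned to 0.52, and without shGm26917 replicate 2 it was -2.20. The direction of this median therefore turned with a single library.

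The gene table held 215 of the 216 host genes, the exception being Gm5812, and 213 of them had a TE in at least 1 library. The TE of Gm11307 and Gm8199 was blank in all 4. Above 0 in all 4 libraries were 134 hosts (62.3%), against 33.0% of all 30694 genes. Among the host types these were 58 of 133 pseudogenes, 70 of 71 coding genes, 5 of 10 lncRNAs and mt-Rnr2. Among processed pseudogenes as a whole the share was 3.06%. A host had to carry footprints for its ORF to be called, so a higher share among hosts follows from how they were chosen. Median TE of the 58 pseudogene hosts was 0.621 and 0.405 in shGm26917, against 0.330 and 0.324 in shNC. Median TE of the 70 coding hosts was 1.11 and 1.43 in shGm26917, against 1.36 and 1.42 in shNC, and that of all 10115 genes above 0 in every library lay between 0.990 and 1.00. The median of the pseudogene hosts was below that of the coding hosts in each of the 4 libraries. At 0 were 69 and 3 of the 133 pseudogene hosts in shGm26917 replicates 1 and 2, against 2 and 11 in shNC, so a TE above 0 in shGm26917 replicate 1 largely chose the 58. Their levels, and the direction of the changes below, are for this reason a description only.

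**Figure D5:**
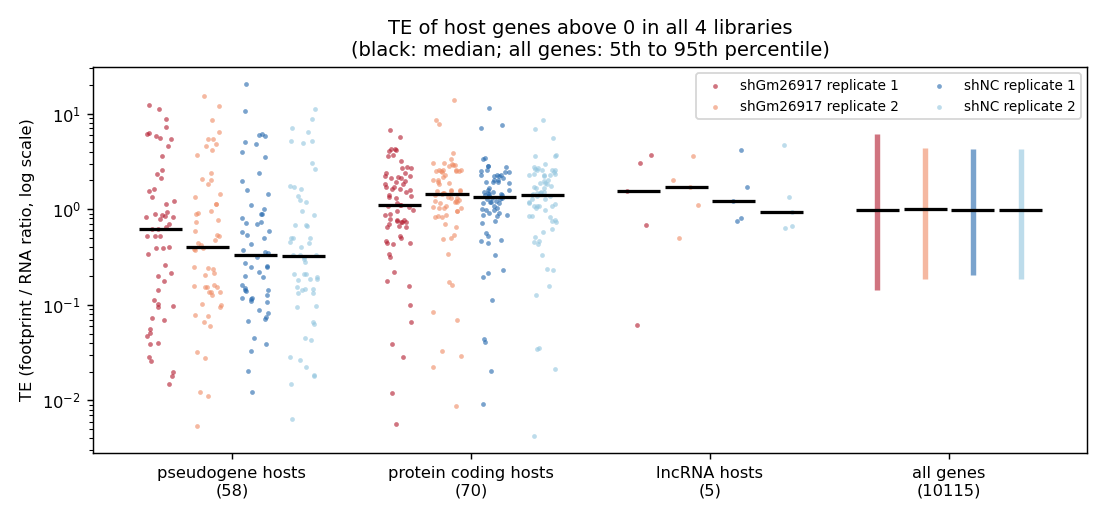
TE (footprint to RNA ratio, log scale) of host genes above 0 in all 4 libraries by host type, each point being 1 gene in 1 library, with medians in black. For all 10115 genes the bars run over the middle of the distribution, from the 5th to the 95th percentile. Pseudogene hosts had medians of 0.621 and 0.405 in shGm26917 and of 0.330 and 0.324 in shNC.

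No host gene passed limma's test of log2(TE), for which 0.0% of the 10115 genes were called and 2.17% had an unadjusted p under 0.05. The study's threshold was met by 4 hosts, or 2.99% of 134, against 2.17% of all genes. All 4 were higher in shGm26917 (all genes 1.3%), none was lower (all genes 0.86%), and all were processed pseudogenes. Of the 153 processed pseudogenes tested, whether hosts or not, 15 met that threshold (9.80%), 14 of them higher, and these too had to be above 0 in shGm26917 replicate 1 to be tested. Gm5867 had a TE of 4.63 and 1.82 in shGm26917, against 0.800 and 0.440 in shNC (log2 change by limma 2.29 ± 0.60, SE, 2 libraries a group). Gm9333 had 2.58 and 2.05 in shGm26917, against 0.742 and 1.18 in shNC (1.30 ± 0.38). Gm13498 had 5.47 and 1.44 in shGm26917, against 0.591 and 0.494 in shNC (2.38 ± 0.70). Eif3s6-ps2, named for a subunit of initiation factor 3, had 0.851 and 0.480 in shGm26917, against 0.313 and 0.186 in shNC (1.40 ± 0.50). The adjusted p was 0.965 for each of the 4, and in all of them the groups did not overlap. Without shGm26917 replicate 1 the changes were 1.62 for Gm5867, 1.13 for Gm9333, 1.41 for Gm13498 and 0.99 for Eif3s6-ps2.

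Values that did not overlap upward were found in 28 of the 134 hosts (20.9%), against 16.1% of all genes tested. Values that did not overlap downward were found in 14 hosts (10.4%), against 14.8% of all genes. The ORFs of the 4 hosts above did not share this order. Gm5867 had 0 and 17.4 on its ORF of 121 codons in shGm26917, against 10.3 and 0 in shNC. Gm9333 had 0 and 37.8 in shGm26917, against 19.7 and 26.8 in shNC. Gm13498 had 0 and 6.80, against 3.16 and 0, and Eif3s6-ps2 had 0 and 17.4, against 19.7 and 11.7. In shGm26917 replicate 1 these ORFs were therefore listed at 0 while the ratio of the host was the highest of the 4 libraries.

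The lower host genes with the smallest p did not meet the study's threshold. Gm12715 had a TE of 0.0147 and 0.127 in shGm26917, against 0.247 and 0.197 in shNC (log2 change -2.35 ± 1.11). B230354K17Rik, a lncRNA, had 0.0612 and 0.498 in shGm26917, against 0.801 and 0.671 in shNC (-2.07 ± 1.05). Srsf10, a splicing factor gene, had 0.0659 and 0.0700 in shGm26917, against 0.113 and 0.126 in shNC (-0.81 ± 0.47). Gm6828 had 6.26 and 5.39, against 20.4 and 6.36 (-0.97 ± 0.63). Their adjusted p was 0.965 each (limma, errors are SE), and the groups did not overlap in any of the 4. Without shGm26917 replicate 1 the change was -0.80 for Gm12715 and -0.56 for B230354K17Rik, and without shNC replicate 1 it was -0.13 for Gm6828. The median log2 change in TE was 0.04 over the 134 hosts, 0.27 over pseudogene hosts, -0.03 over coding hosts, 0.29 over all 153 processed pseudogenes and 0.00 over all genes. With ratios of 0 included (a pseudocount of 0.01, 211 hosts) the median over the hosts turned to -0.21. The study's threshold was met by 11 hosts without shGm26917 replicate 1 (8.21%, against 5.73% of all genes) and by 46 without shGm26917 replicate 2 (34.3%, against 34.3%). It was met by 3 without shNC replicate 1 (2.24%, against 1.09%) and by 2 without shNC replicate 2 (1.49%, against 0.702%). Without shGm26917 replicate 2, 10 hosts (7.46%) and 583 of all genes (5.76%) passed the adjusted test, and in the other 3 such fits none did.

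Pathways that bear on such ORFs were examined by lists chosen with earlier results of these data known. Nonsense-mediated decay clears many RNAs whose ORF ends early, and all 16 of its factors listed had a TE. Higher were 10 and lower 6, with a median log2 change of 0.08, and none was called (2.17% of all genes at the study's threshold, 0 here). The quality control of peptides from noncoding RNA, with Bag6, Get4 and the ubiquilins among its 10 genes, had 5 higher and 5 lower, a median of -0.04 and 0 called. Of the host genes of small nucleolar RNAs 15 could be tested, 10 higher and 5 lower with a median of 0.32 and 0 called, and 3 of them held an unannotated ORF. Of the known lncRNAs 9 could be tested, 5 higher and 4 lower with a median of 0.23, and of genes known for microproteins 8, 2 higher and 6 lower with a median of -0.28. None of these was called, and H19, a lncRNA of an imprinted region, alone met the study's threshold for TE. Its values were 0.0472 and 0.192 in shGm26917, against 0.762 and 0.573 in shNC. A gene with a TE of 0 in any library was not tested. At 0 in shGm26917 replicate 1 alone were Lockd, Peg13, Airn, Mir22hg, Ftx, the small nucleolar RNA host Mir17hg and the microprotein gene 2310009B15Rik. Kcnq1ot1 was at 0 in shNC replicate 2 alone. Directions and medians of the lncRNA, small nucleolar RNA host and microprotein lists are for this reason a description only. In the fit of ORF values 0 ORFs of the lists were called. The study's threshold was met there by 1 of 3 ORFs of small nucleolar RNA hosts, 1 of 1 of the lncRNAs and 1 of 5 of the microprotein genes. It was met by 0 of 14 ORFs of decay factors and 0 of 7 of peptide quality control, against 7.37% of all ORFs. The lncRNA list held 1 unannotated ORF (2410006H16Rik) and the microprotein list held 0. Gm26917 itself held no unannotated ORF, and its TE was 113 and 8.62 in shGm26917, against 17.0 and 23.8 in shNC. Since TE is relative to RNA, the knockdown itself could not be checked from it.

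The cell identity of the culture was weakly marked in these files. Of the 10 germline markers 8 were among the genes listed for TE, as were 5 of 6 stromal and 5 of 5 macrophage markers. Of the germline markers, 2 had a TE above 0 in all 4 libraries, and Ddx4, Nanos2 and Pou5f1 had none above 0 in any library. Only Ifitm3 of them had an ORF in the table, with values of 0 and 799 in shGm26917, against 1111 and 797 in shNC. Of the stromal markers, 4 of 6 had an ORF (Col1a1, Col1a2, Dcn and Pdgfra), with summed values of 677 and 2984 in shGm26917, against 3683 and 3986 in shNC, and 4 had a TE above 0 in all 4 libraries. Of the macrophage markers, 2 of 5 had an ORF (Adgre1 and Ptprc), summed to 0 and 1436 in shGm26917, against 1074 and 772 in shNC, and 4 had a TE above 0 in all 4 libraries. No granulosa, endothelial or epithelial marker had one. The study also assayed germline markers of its cells by other methods, which are outside the data used here. The part of other cell types in the values of unannotated ORFs was not tested.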

How the data were processed

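Ribosome profiling of 2 shGm26917 and 2 shNC libraries was analysed, with groups and replicate numbers from the sample labels. Lysates had been digested with RNase I and ribosomes pelleted through sucrose. The authors called ORFs with RiboCode (genome mm10 per the submitters' processing notes). Aligner, counting tool and the treatment of strand and multiply matching reads (not given in the sources used here) could change which ORF a read was counted for.

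The deposited ORF table holds a signal per ORF and library, made by the authors as reads divided by a size factor. Each signal above 0 was a whole multiple of the value of 1 read (2.25 and 0.756 in shGm26917, 0.790 and 1.17 in shNC), for 100% of values within 0.01 reads, which gave whole reads. In shGm26917 replicate 1 too few values were low for a separate check. The deposited gene table holds TE as a ratio of normalized footprints over normalized RNA, formed by the authors, and its depth is unknown. Both tables also hold the authors' own fold changes, p-values and classes, which were not used.

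Unannotated ORFs were the rows that the table's type column marks as newly called, apart from its annotated, upstream and downstream classes. The members, gene lists and rules were chosen with earlier results of these data known. ORF values were compared with limma 3.58.1 (lmFit, eBayes with trend, R 4.3.3) on log2(value + 1), for ORFs over 1 in at least 2 libraries, which all 4669 met, so fold changes understate those of low values. TE was compared on log2(TE) for genes above 0 in all 4 libraries. Benjamini-Hochberg adjustment ran over each whole table. On whole reads, edgeR 4.0.16 (quasi-likelihood, TMM, filterByExpr) and DESeq2 1.42.0 (Wald test) made no call at the adjusted threshold among 3927 and 4669 ORFs, and had 4 and 350 at an unadjusted p under 0.05. Some of the ORFs in the DESeq2 fit had no adjusted p and could not be called. The procedure was tested on simulated data. The p-values measure only the spread between these libraries. Named were the ORFs above 0 in all libraries (up to 12 by mean), the 5 with the smallest p in each direction, the 6 highest per codon, the 4 longest and shortest, members of the lists, and the 4 host genes with the smallest p in each direction. Others, such as Rpl13, Hspd1-ps3 and several lncRNAs, were chosen after their values were seen. Some ORFs that these rules name are not reported here. Symbols of 200 of the 216 host genes matched RefSeq. Pairing of replicate numbers was checked by the correlation of same-numbered deviations, which was -0.09 for ORF values and -0.04 for TE.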

Additional observations from a re-analysis of the deposited data

How the results depend on the processing

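At the adjusted threshold no unannotated ORF and no host gene was called under any alternative except one. Without shGm26917 replicate 2 the calls were 1982 of all ORFs, 23 unannotated ORFs, 583 of all genes and 10 hosts, so leaving out each library in turn gave ranges of 0 to 1982, 0 to 23, 0 to 583 and 0 to 10. Passing there among the named were the ORFs in 2410006H16Rik, Eif4a1, Gm5823, Gm9625 and Rpl14-ps1 and the TE of Gm5867, Gm13498, Gm12715 and B230354K17Rik. There the lone library is assumed to vary like the shNC pair. At the study's threshold the same ranges were 257 to 2152 ORFs, 3 to 31 unannotated ORFs, 71 to 3472 genes and 2 to 46 hosts. Limiting the fit to ORFs above 0 in at least 3 libraries called 14 of all ORFs, and left 46 of all ORFs and 0 unannotated ORFs at the study's threshold.

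The study's threshold was met by 53 ORFs and 1 unannotated ORF with quantile normalization, 4 and 1 with edgeR after filterByExpr, and 8 and 1 with edgeR without a filter. It was met by 364 ORFs and 14 unannotated ORFs with a pseudocount of 0.5, 303 and 5 without the eBayes trend, and 244 and 2 with the replicate number as a block. For TE, ratios of 0 with a pseudocount of 0.01 gave 500 genes and a median of -0.21 over the hosts, and the replicate block gave 284 genes and 9 hosts. Deviations of same-numbered libraries were nearly uncorrelated (-0.09 for ORF values and -0.04 for TE). With 2 libraries a group this check cannot tell whether the libraries were prepared in pairs. The median log2 change of unannotated ORFs was 1.08 with quantile normalization, and that scaling turned 5 named ORFs upward: Gm9385 1.74, Gm9625 1.74, Gm5823 1.71, Cd63-ps 1.88 and Rps16-ps2 1.75. Gm13461 was 1.83 with it, 0.0038 with a pseudocount of 10, 0.41 with edgeR under either filter and 0.37 with DESeq2.

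Leaving out each library gave changes of -1.19 to 1.19 for Gm13461, 0.20 to 2.08 for Rpl14-ps1, -1.88 to 0.60 for Gm9385, -2.20 to 0.49 for Gm9625, -2.52 to 0.30 for Gm5823, -0.35 to 0.41 for Impdh2-ps, -0.21 to 0.86 for Gm12183, -0.53 to 0.84 for Vcp-rs, -2.20 to 0.0059 for Cd63-ps, 0.24 to 2.06 for Gm5422, -1.75 to -0.14 for Rps16-ps2, -0.68 to 3.03 for Gm7701 and -0.56 to 2.54 for Gm6392. The lower ends for Gm7701 and Gm6392 come from the fit without shGm26917 replicate 2. There the remaining shGm26917 library was listed at 0, so the pseudocount sets these values.

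A minimum of 10 reads left 12 and 114 unannotated ORFs in shGm26917, against 107 and 65 in shNC. The value filter removed no ORF, so leaving it off changed nothing. The comparison with RefSeq protein lengths was not run. The cause of these changes was not tested.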
